A study of Drosophila melanogaster with 27 samples.

Results

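The 9 genes described here encode transcription factors or cofactors of transcription known from the mushroom body (MB), the learning and memory centre of the insect brain. They are *ey*, *toy*, *dac*, *chinmo*, *mamo*, *ab*, *br*, *FoxP* and *Eip93F*. Each was looked up by its FlyBase identifier among the 17529 gene identifiers of the count table, and all 9 were found and passed the filter on low counts, which kept 12921 genes.

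RNA was sequenced from whole heads of adult *Drosophila* aged 1 to 3 days, males and females pooled, in which YFP-tagged TDP-43 or YFP alone was expressed in mushroom body neurons (MBNs). According to the study's methods the SS01276 split GAL4 line drove expression in a subset of MBNs of the α/β and γ lobes, each lysate pooled many heads, and YFP alone was expressed far more strongly than TDP-43 YFP. Every genotype had 3 lysates, and each lysate gave an input library, a library of the RNA that came down with the YFP tag on GFP-Trap beads (IP) and a library of the RNA left behind (unbound), 27 in all. The comparisons ask which mRNAs came down with TDP-43 WT or with the disease variant TDP-43 G298S beyond what came down with YFP alone.

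The TDP-43 WT flies carried UAS TDP43WT-YFP and the TDP-43 G298S flies UAS TDP43G298S-YFP, each together with UAS mCD8-RFP, a membrane-bound red fluorescent protein, in a w background. The YFP control flies carried P[UAS-2XEYFP]AH3 in a yw background and no mCD8-RFP. TDP-43, mCD8-RFP, the background and the amount of tagged protein therefore cannot be told apart in any comparison with YFP. The lysates of TDP-43 WT are called WT-502, WT-505 and WT-202. Those of TDP-43 G298S are G298S-503, G298S-506 and G298S-203, in YFP they are YFP-901, YFP-902 and YFP-201, and values below follow that order. The leading number of the lysate labels was the same for WT-502, WT-505 and for G298S-506 and G298S-503. YFP-902 and YFP-901 shared another. The last set, YFP-201 with G298S-203 and WT-202, was the only 1 to hold all 3 genotypes.

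Kenyon cells are the intrinsic neurons of the MB. Their subtypes are born in sequence from a few neuroblasts, and graded and hormone-controlled transcription factors set which subtype a newborn neuron becomes. *ey* and *toy* are the fly Pax6 genes and, with the nuclear cofactor *dac*, act in both the eye and the MB. *chinmo*, *mamo*, *ab* and *br* encode proteins with a BTB domain and zinc fingers: Chinmo is graded in time in MBNs, Mamo acts in subtype identity, Abrupt shapes dendrites of sensory neurons, and Broad responds to the steroid hormone ecdysone at metamorphosis. FoxP is a forkhead protein of Kenyon cells used in decision making, and Eip93F is an ecdysone-induced factor of the late pupal and adult stages. TDP-43 is an RNA-binding protein that leaves the nucleus and aggregates in amyotrophic lateral sclerosis and frontotemporal dementia.

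In the Ensembl annotation of the BDGP6.54 assembly, *ey* (FBgn0005558) and *toy* (FBgn0019650) lie on chromosome 4. *dac* (FBgn0005677), *chinmo* (FBgn0086758) and *ab* (FBgn0264442) lie on arm 2L, *mamo* (FBgn0267033) and *br* (FBgn0283451) on X, and *FoxP* (FBgn0262477) and *Eip93F* (FBgn0264490) on 3R. Exons of *ab* share 55 bases (0.76% of its exon length) with *cmet* on the opposite strand, and exons of *br* share 189 bases (0.94%) with *Mur2B*, also opposite. Whether reads were counted by strand is not given in the sources used here, so reads from those bases cannot be assigned to either gene. The other 7 genes shared no exon base with another gene.

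Total counts ranged from 1848426 (the G298S-503 IP) to 157035496 per library, and from 1848426 to 16763149 among the IPs. Over the 27 libraries the 9 genes had between 15 counts (*br*, lowest library) and 18674 counts (*Eip93F*, highest library). The labels name Kenyon cells as the cell type but the tissue was the head: in the inputs 10 Kenyon cell markers summed to between 689 and 1570 CPM and 14 photoreceptor markers to between 12768 and 33942 CPM, and none of these markers was at 0 in any group. YFP-902 had the lowest YFP IP value of 8 of the 9 genes, and its IP also had the lowest sum of 7 neuron markers among the YFP IPs (947 CPM against 2261 in YFP-901 and 1730 in YFP-201).

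Per length of exon, *toy* was the most abundant of the 9 mRNAs in the inputs and *br* the least. The median input level over 9 lysates was 13.5 RPKM for *toy*, 8.21 for *Eip93F*, 6.86 for *FoxP*, 5.61 for *ab* and 4.04 for *ey*. It was 2.68 RPKM for *mamo*, 2.56 for *chinmo*, 2.34 for *dac* and 0.455 for *br*. Neighbours in this order had overlapping ranges over the lysates, with the exception of *dac* (1.23 to 3.37 RPKM) and *br* (0.122 to 0.701 RPKM). By mean input level *toy* stood at the 70.5th percentile of the genes tested, *ey* at the 42.7th and *br* at the 8.7th. In the IPs *ey* moved up the order to a median of 16.3 RPKM, behind *toy* (28.3 RPKM) and *FoxP* (17.7 RPKM) and ahead of *Eip93F* (13.8 RPKM). Over all 9 IPs, however, *ey* ranged from 2.79 to 24.3 RPKM, and the next paragraphs show that its low values all came from YFP.

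**Figure D1:**
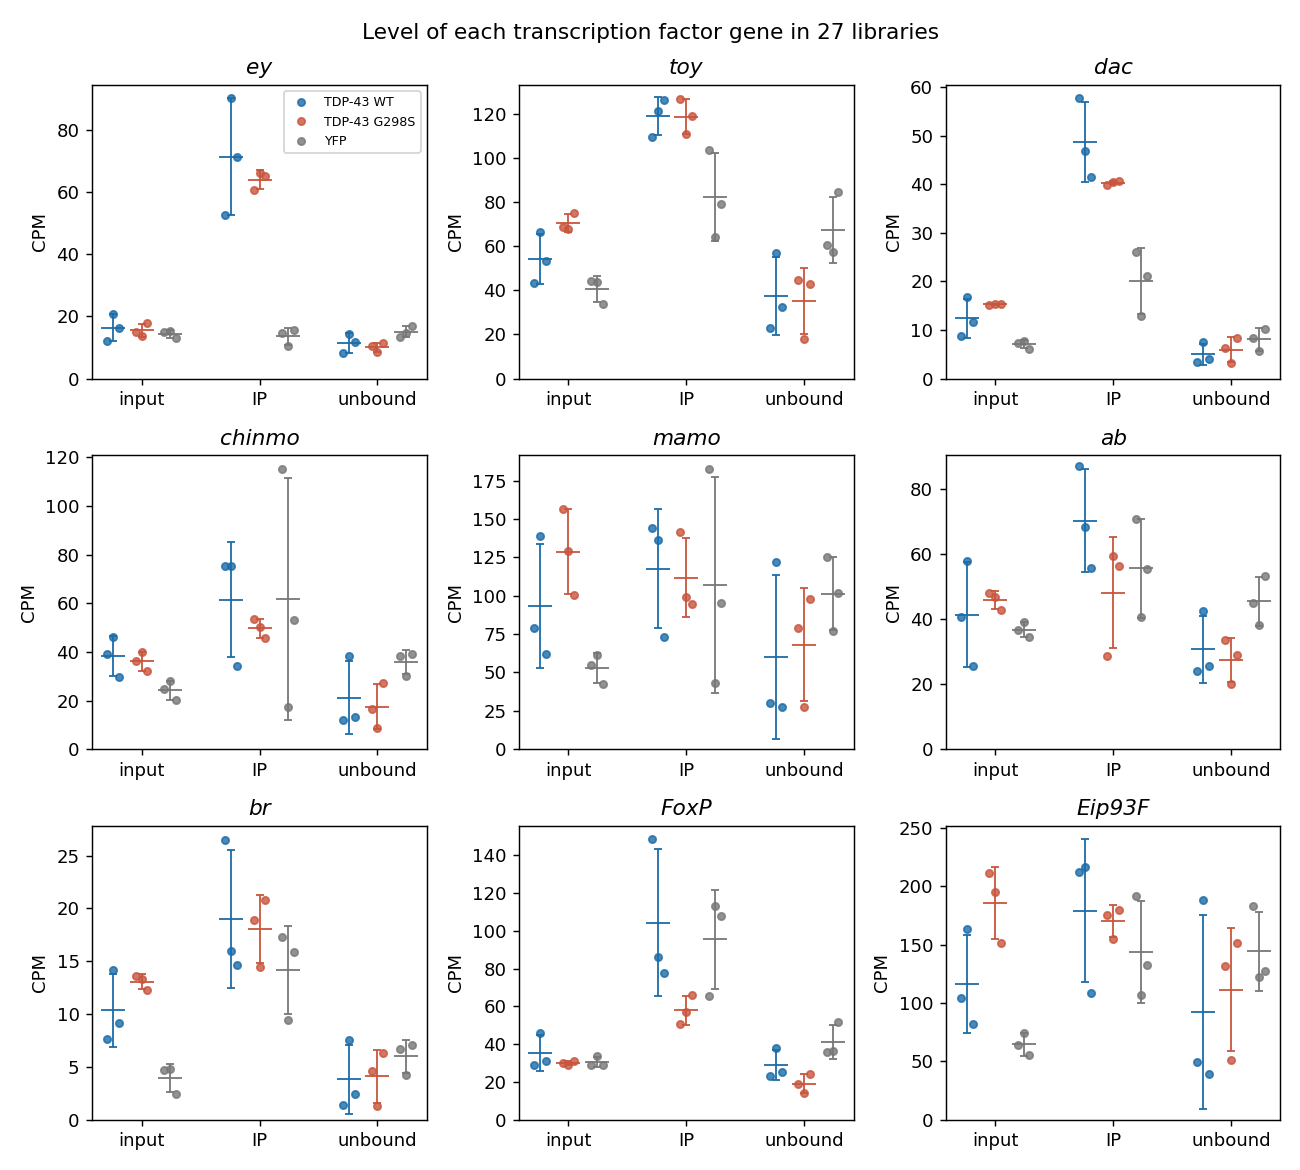
Level of the 9 genes in CPM (vertical axes, each starting at 0) in input, IP and unbound libraries. Points are lysates, horizontal ticks are group means and bars are SD (n = 3 lysates per genotype and fraction). *ey* lies between 52.7 and 90.3 CPM in the 6 TDP-43 IPs and at or below 15.7 CPM in the 3 YFP IPs.

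*ey*, which heads the Pax6 pathway of eye development together with *toy*, was enriched with both TDP-43 variants and not with YFP. Its inputs were 12.0, 20.8 and 16.3 CPM in TDP-43 WT, 15.0, 13.8 and 17.8 CPM in TDP-43 G298S and 14.8, 15.2 and 12.9 CPM in YFP. The 3 genotypes overlapped there. Its IPs were 52.7, 90.3 and 71.2 CPM in TDP-43 WT and 60.5, 66.2 and 65.2 CPM in TDP-43 G298S, against 14.7, 10.4 and 15.7 CPM in YFP. Every TDP-43 IP was above every YFP IP, and above every input.

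Within lysates the log2 ratio of IP to input CPM of *ey* was 2.13, 2.11 and 2.12 in TDP-43 WT and 2.01, 2.26 and 1.87 in TDP-43 G298S. In YFP it was -0.01, -0.55 and 0.28. The fitted Log2FC of IP over input was 2.08 (SE 0.23, Padj = 8.40e-06) in TDP-43 WT, a 4.23-fold enrichment, and 1.95 (SE 0.23, Padj = 2.38e-05) in TDP-43 G298S, a 3.87-fold enrichment. In YFP it was 0.01 (SE 0.22, 95% interval -0.46 to 0.48). Enrichment here means Log2FC above 1 and Padj below 0.05 in edgeR, with p values adjusted over all 12921 genes.

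The enrichment of *ey* exceeded that in YFP by 2.07 on the log2 scale in TDP-43 WT (SE 0.31, 95% interval 1.405 to 2.738, Padj = 0.00188) and by 1.94 in TDP-43 G298S (SE 0.31, 95% interval 1.28 to 2.61, Padj = 0.0159). Both differences rest on the same YFP lysates. *ey* was the only 1 of the 9 genes past the threshold in either test, at which 1.26% of all genes were higher and 0.0542% lower in TDP-43 WT than in YFP, and 0.348% higher and 0.371% lower in TDP-43 G298S. The difference for TDP-43 WT passed under all 17 alternatives, with Padj up to 0.0430, and lay between 1.86 and 2.78. For TDP-43 G298S it lay between 1.75 and 2.80, but the call was lost without G298S-503 (Padj = 0.0725), without G298S-506 (Padj = 0.133), without G298S-203 (Padj = 0.0815), without YFP-901 (Padj = 0.0617) and without YFP-902 (Padj = 0.0625). Within the label set of WT-202, G298S-203 and YFP-201, the log2 ratio was 2.12 in WT-202, 1.87 in G298S-203 and 0.28 in YFP-201.

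The 10 Kenyon cell markers, a list that leaves out the 9 genes, also stood higher in the TDP-43 IPs. They summed to between 2796 and 3238 CPM in TDP-43 WT and between 2538 and 3100 CPM in TDP-43 G298S, against 930 to 2103 CPM in YFP. Their sums were higher in the TDP-43 inputs as well. As enrichment over input, the differences of single markers from YFP ran from -1.33 to 2.71 in TDP-43 WT (median 0.06). In TDP-43 G298S they ran from -1.63 to 2.27 (median -0.19). Past the threshold, 3 of 10 were higher in TDP-43 WT and 1 of 10 in TDP-43 G298S, and 0 were lower in either. The part of these markers in the *ey* result was not tested.

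**Figure D2:**
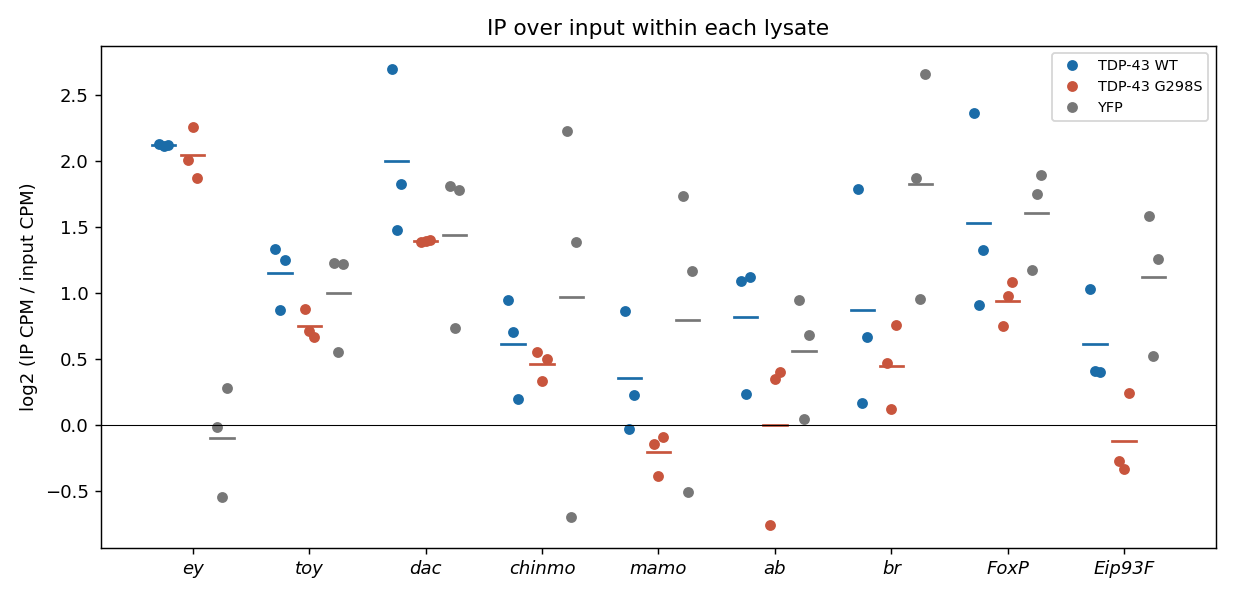
Log2 ratio of IP to input CPM within each lysate for the 9 genes. Points are lysates (3 per genotype) and short lines are their means. For *ey* the TDP-43 lysates lie between 1.87 and 2.26 and the YFP lysates between -0.55 and 0.28. For *toy*, *dac*, *chinmo*, *mamo* and *ab* the YFP lysates overlap those of both TDP-43 genotypes.

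*toy*, the paralogue of *ey*, was enriched with TDP-43 WT and with YFP. Its inputs were 43.5, 66.3 and 53.1 CPM in TDP-43 WT, 68.8, 67.6 and 74.9 CPM in TDP-43 G298S and 44.2, 43.7 and 33.9 CPM in YFP. Its IPs were 109.6, 121 and 126 CPM, 126.5, 111 and 119 CPM, and 103, 64.1 and 79.2 CPM in the same order. Every TDP-43 IP was above every YFP IP, and every TDP-43 input other than that of WT-502 was above every YFP input. Log2FC of IP over input was 1.09 (SE 0.20, Padj = 0.000804) in TDP-43 WT and 1.10 (SE 0.20, Padj = 0.00108) in YFP, both enriched, although the YFP value fell just under the fold minimum without YFP-901 (0.96) and without YFP-201 (0.995). In TDP-43 G298S it was 0.66 (SE 0.20, Padj = 0.0269), past the adjusted p but under the fold minimum. The difference from YFP was -0.01 (95% interval -0.62 to 0.59) for TDP-43 WT and -0.44 (-1.05 to 0.17) for TDP-43 G298S.

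*dac*, whose product works with the retinal determination proteins and is needed for MB axon lobes, was enriched in all 3 genotypes. Its IPs were 57.7, 46.8 and 41.5 CPM in TDP-43 WT, 39.9, 40.4 and 40.7 CPM in TDP-43 G298S and 26.2, 12.8 and 21.2 CPM in YFP. The inputs were 8.84, 16.8 and 11.7 CPM, 15.2, 15.3 and 15.3 CPM, and 7.39, 7.66 and 6.12 CPM. In both fractions every TDP-43 lysate was above every YFP lysate. Log2FC of IP over input was 1.93 (SE 0.25, Padj = 4.37e-05) in TDP-43 WT, 1.31 (SE 0.25, Padj = 0.00134) in TDP-43 G298S and 1.597 (SE 0.25, Padj = 0.000360) in YFP. The difference from YFP was 0.33 (95% interval -0.41 to 1.07) and -0.29 (-1.03 to 0.45), neither past the test.

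The 4 BTB zinc finger genes did not pass as enriched in either TDP-43 IP, and *chinmo* and *br* were enriched in the YFP IP. Without WT-505, *ab* (1.01, Padj = 0.0461) and *br* (1.19, Padj = 0.0450) passed in the TDP-43 WT IP, which brought the count of the 9 genes there to 6. *chinmo* had IP levels of 75.3, 75.2 and 34.0 CPM in TDP-43 WT, 53.4, 50.3 and 45.6 CPM in TDP-43 G298S and 115.3, 17.2 and 52.9 CPM in YFP. YFP held both the highest and the lowest of these 9 values. Log2FC was 0.63 (SE 0.46) in TDP-43 WT, 0.37 (SE 0.46) in TDP-43 G298S and 1.46 (SE 0.47, Padj = 0.0307) in YFP. The YFP call was lost without YFP-901 (Log2FC 0.61, Padj = 0.387) and without YFP-201 (1.42, Padj = 0.109), and at the margin without any 1 of the TDP-43 G298S lysates (Padj up to 0.0518).

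*br* was the least abundant of the 9 mRNAs and had IP levels of 26.5, 15.9 and 14.6 CPM in TDP-43 WT, 18.9, 14.5 and 20.8 CPM in TDP-43 G298S and 17.3, 9.43 and 15.9 CPM in YFP. The genotypes overlapped in the IP. In the inputs they did not: 7.64, 14.2 and 9.19 CPM and 13.6, 13.3 and 12.3 CPM stood against 4.66, 4.84 and 2.46 CPM in YFP. Log2FC of IP over input was 0.84 (SE 0.32, Padj = 0.0650) in TDP-43 WT, 0.38 (SE 0.32, Padj = 0.451) in TDP-43 G298S and 1.91 (SE 0.34, Padj = 0.000784) in YFP. The difference from YFP was -1.07 (95% interval -2.04 to -0.10, Padj = 0.353) for TDP-43 WT and -1.53 (-2.51 to -0.55, Padj = 0.131) for TDP-43 G298S, and neither passed.

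*mamo* had IP levels of 72.9 to 144 CPM in TDP-43 WT, 94.6 to 142 CPM in TDP-43 G298S and 43.2 to 183 CPM in YFP. Its Log2FC over input was 0.29 (SE 0.42), -0.29 (SE 0.42) and 1.12 (SE 0.42, Padj = 0.0651), none of them enriched. *ab* had a Log2FC of 0.73 (SE 0.28, Padj = 0.0662) in TDP-43 WT, -0.00 (SE 0.28) in TDP-43 G298S and 0.69 (SE 0.28, Padj = 0.0852) in YFP. Its lowest IP library was G298S-503 at 28.6 CPM, the IP with the fewest total counts, and its others lay between 40.6 and 87.1 CPM.

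*FoxP* was enriched with TDP-43 WT and with YFP. Its IPs were 149, 86.4 and 77.7 CPM in TDP-43 WT, 50.9, 57.1 and 66.2 CPM in TDP-43 G298S and 65.6, 113 and 107.7 CPM in YFP. WT-502 had the highest of these values, and the TDP-43 G298S lysates were below all others except YFP-901. Log2FC was 1.52 (SE 0.23, Padj = 0.000184) in TDP-43 WT, 1.72 (SE 0.24, Padj = 0.000118) in YFP and 0.86 (SE 0.23, Padj = 0.0136) in TDP-43 G298S, the last under the fold minimum. The difference from YFP was -0.20 (95% interval -0.90 to 0.49) for TDP-43 WT and -0.86 (-1.55 to -0.16, Padj = 0.243) for TDP-43 G298S.

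*Eip93F* passed as enriched in the YFP IP, at a Log2FC of 1.25 (SE 0.28, Padj = 0.00430). In TDP-43 WT the Log2FC was 0.58 (SE 0.28, Padj = 0.147) and in TDP-43 G298S -0.21 (SE 0.28, Padj = 0.636). Its IP levels overlapped throughout, at 212, 216 and 109 CPM, 176, 155 and 179.9 CPM, and 192, 107 and 132 CPM. Its inputs did not overlap with those of YFP, at 104, 163 and 82.1 CPM, 212, 195 and 152 CPM, and 64.0, 74.2 and 55.2 CPM. The difference from YFP was -0.67 (95% interval -1.51 to 0.17, Padj = 0.528) in TDP-43 WT and -1.46 (-2.30 to -0.62, Padj = 0.0956) in TDP-43 G298S, where it passed with the lysate as a replicate block (-1.42, Padj = 0.0435). The YFP call was lost without YFP-901 (Log2FC 0.96, Padj = 0.0603).

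By count, 4 of the 9 genes (*ey*, *toy*, *dac*, *FoxP*) were enriched in the TDP-43 WT IP, where 10.5% of all genes were enriched and 3.03% depleted, and 2 (*ey*, *dac*) in the TDP-43 G298S IP, where 7.39% were enriched and 2.44% depleted. In the YFP IP 6 of the 9 (*toy*, *dac*, *chinmo*, *FoxP*, *Eip93F*, *br*) were enriched, against 10.3% of all genes. The median Log2FC of the 9 genes was 0.84, 0.38 and 1.25 in TDP-43 WT, TDP-43 G298S and YFP, and that of all genes -0.09, -0.16 and -0.14. The YFP count fell to 3 without YFP-901. Measured against the unbound fraction in place of the input, the counts were 7 in TDP-43 WT (15.8% of all genes), 6 in TDP-43 G298S (14.9%) and 2 in YFP (5.68%). Scaling by library sizes alone gave 6 in TDP-43 G298S, where it enriched 30.6% of all genes.

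**Figure D3:**
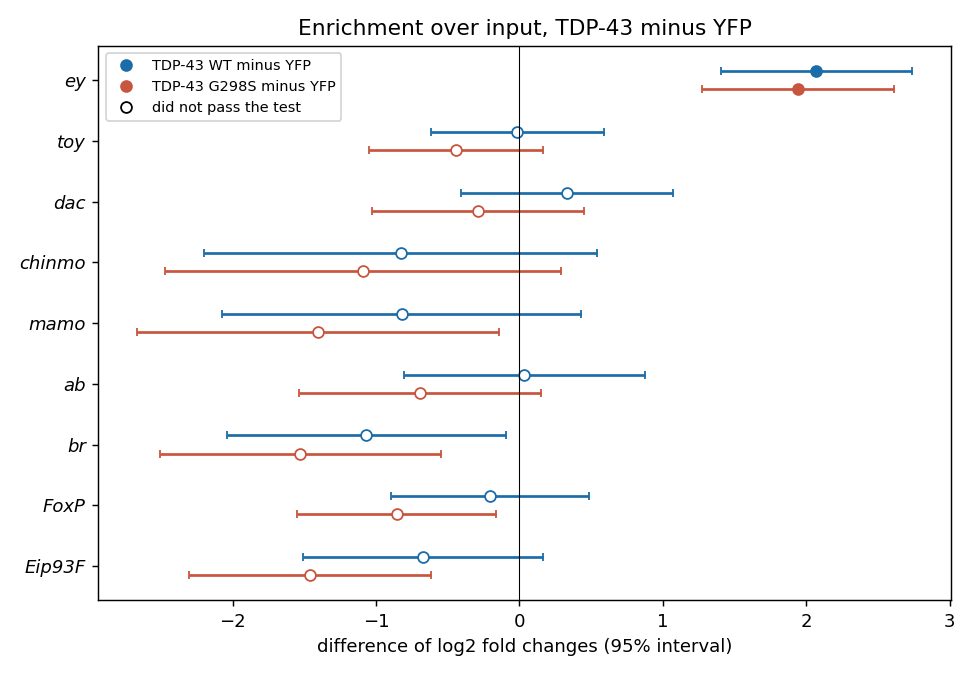
Difference between the IP-over-input Log2FC of TDP-43 and that of YFP for the 9 genes, with 95% intervals from the edgeR fit (18 libraries). Filled points passed the threshold. Both points of *ey* (2.07 and 1.94) are filled and all others are open.

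Apart from *ey*, the difference from YFP was negative for 6 of the other 8 genes in TDP-43 WT and for all 8 in TDP-43 G298S. Over all genes it was negative for 50.2% and 51.4%, and the YFP lysates are shared between both sets. None of these differences passed, although 1 gene in TDP-43 WT (*br*) and 4 in TDP-43 G298S (*mamo*, *FoxP*, *Eip93F* and *br*) had an unadjusted p below 0.05 in edgeR. DESeq2 called *Eip93F* (Padj = 0.00597) and *br* (Padj = 0.0235) lower in TDP-43 G298S, where it called 2.62% of all genes lower. The sign of the differences from YFP depended on the reference fraction. With the unbound libraries as the reference, all 9 differences were positive in both variants, from 0.63 (*FoxP*) to 2.78 (*ey*) in TDP-43 WT and from 0.40 (*FoxP*) to 2.80 (*ey*) in TDP-43 G298S, and *dac* passed for TDP-43 WT (1.95, Padj = 0.0148). The calls over all genes shifted as well. With that reference 4.1% of all genes were higher and 0.0749% lower in TDP-43 WT than in YFP, and 1.6% higher and 0.12% lower in TDP-43 G298S.

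TDP-43 WT and TDP-43 G298S did not differ in the enrichment of any of the 9 genes at Padj below 0.05 in edgeR. Neither DESeq2 nor an unadjusted p below 0.05 picked out a gene here (0 in each case), where 0.255% of all genes were more and 0.00774% less enriched with TDP-43 WT. All 9 differences of WT minus G298S were positive, from 0.13 for *ey* (SE 0.31, 95% interval -0.53 to 0.78) to 0.79 for *Eip93F* (SE 0.39, interval -0.05 to 1.63). Of all genes 55.7% were positive, as were all 10 Kenyon cell markers, all 7 neuron markers and 3 of 14 photoreceptor markers. The sign of the *ey* value turned with library sizes alone (-0.35) and with the unbound reference (-0.03).

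The inputs, which hold whole-head RNA before the IP, also differed between genotypes for some of the 9 genes. They are the denominators of the IP-over-input ratios above. *dac*, *Eip93F* and *br* were higher in TDP-43 WT than in YFP inputs (3 of 9, against 7.58% of all genes higher and 7.37% lower), and *toy*, *dac*, *mamo*, *Eip93F* and *br* were higher in TDP-43 G298S than in YFP inputs (5 of 9, against 15.4% higher and 12.0% lower). In libraries of whole heads, a difference in the number of cells that express a gene and a difference in RNA per cell cannot be told apart.

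*br* differed most, by a Log2FC of 1.41 in TDP-43 WT (SE 0.33, Padj = 0.0128) and 1.73 in TDP-43 G298S (SE 0.33, Padj = 0.00207). *Eip93F* followed with 0.90 (SE 0.28, Padj = 0.0429) and 1.56 (SE 0.28, Padj = 0.00157). *dac* was higher by 0.87 (SE 0.25, Padj = 0.0314) and 1.15 (SE 0.25, Padj = 0.00407). *toy* was higher by 0.82 in TDP-43 G298S (SE 0.20, Padj = 0.00791) and had 0.47 in TDP-43 WT (SE 0.20, Padj = 0.112).

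*mamo* had inputs of 79.0, 139 and 62.2 CPM in TDP-43 WT, 156.5, 129 and 101 CPM in TDP-43 G298S and 54.9, 61.5 and 42.5 CPM in YFP, so that all TDP-43 lysates were above all YFP lysates. Its Log2FC over YFP was 0.86 (SE 0.42, Padj = 0.157) in TDP-43 WT and 1.30 (SE 0.42, Padj = 0.0323) in TDP-43 G298S. *chinmo* (0.71 and 0.61), *ab* (0.22 and 0.36), *FoxP* (0.27 and 0.02) and *ey* (0.25 and 0.15) did not pass in either genotype.

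The calls in TDP-43 WT inputs were not firm. None of the 3 was left without WT-505 and 1 was left without YFP-201, without any 1 of the TDP-43 G298S lysates or with the label number as a term. For TDP-43 G298S, library sizes alone left 3 of the 5, and without single lysates 4 or 5 were called. Within the label set of WT-202, G298S-203 and YFP-201, *br* was at 9.19 CPM in WT-202, 12.3 in G298S-203 and 2.46 in YFP-201, and *Eip93F* at 82.1, 152 and 55.2 CPM.

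Kenyon cell, neuron and photoreceptor markers moved with these input differences. Of the 10 Kenyon cell markers, 2 were higher in TDP-43 WT than in YFP inputs and 7 in TDP-43 G298S. The 7 neuron markers summed to between 996 and 1714 CPM in TDP-43 WT inputs, 1486 and 1529 CPM in TDP-43 G298S inputs and 633 and 807 CPM in YFP inputs, and 2 and 4 of the 7 were higher than in YFP. The sum of the 14 photoreceptor markers went the other way, with 16298 to 24947, 12768 to 13923 and 27337 to 33942 CPM. Of the 14, 5 and 13 were lower than in YFP, and 1 had a positive Log2FC in each variant. Mitochondrially encoded genes took 47.5% to 49.6% of the counts in TDP-43 G298S inputs, against 28.7% to 37.4% in the others. In muscle (8 markers) 2 and 1 were lower, in fat body (7 markers) 2 and 1 were higher, and in glia (8 markers) 2 and 1 were higher and 1 and 1 lower. The part of these in the input differences of the 9 genes was not tested.

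**Figure D4:**
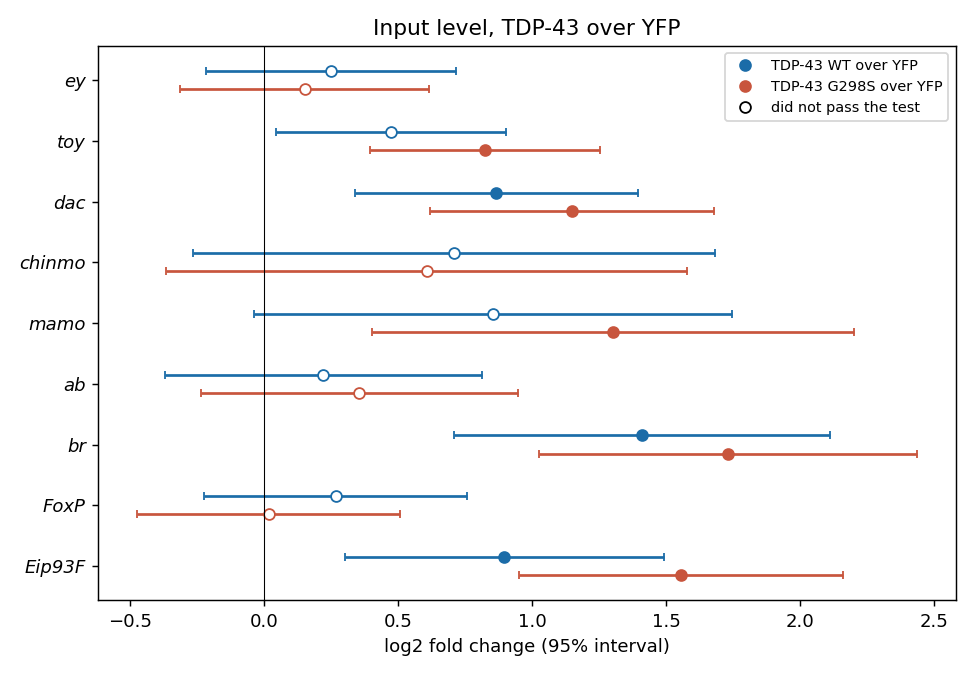
Log2FC of the input level in TDP-43 over YFP heads for the 9 genes, with 95% intervals from the edgeR fit. Filled points passed Padj below 0.05: *dac*, *br* and *Eip93F* in both TDP-43 genotypes, and *toy* and *mamo* in TDP-43 G298S only.

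In a comparison of the inputs of both TDP-43 variants, 0 of the 9 genes differed in edgeR and 0 in DESeq2, while 0.139% of all genes were higher and 0.108% lower. *Eip93F* was the 1 gene with an unadjusted p below 0.05 (Log2FC -0.66, SE 0.28, Padj = 0.472).

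Unbound libraries were set against the inputs to see how the 9 mRNAs stood in the RNA left after the pulldown. All 9 genes had a lower fitted level in the unbound fraction than in the input in both TDP-43 genotypes, and all 9 had a higher one in YFP. Of all genes, 45.4% were lower in TDP-43 WT and 41.5% in TDP-43 G298S, and 36.1% were higher in YFP. All 7 neuron markers had the same signs as the 9 genes. Of the 10 Kenyon cell markers, 9 were lower in TDP-43 WT, 10 were lower in TDP-43 G298S and 8 were higher in YFP. Of the 14 photoreceptor markers 7, 8 and 4 were so. The call at Padj below 0.05 was met by *dac* in TDP-43 WT (1 of 9, with 7.80% of all genes lower and 9.10% higher) and by *toy*, *dac* and *br* in TDP-43 G298S (3 of 9, with 8.79% of all genes lower and 9.63% higher). In YFP 0 of the 9 genes and 0 of all 13349 genes passed in edgeR, DESeq2 called 0 of the 9, and 2 of them (*toy* and *Eip93F*) had an unadjusted p below 0.05.

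*dac* was at 3.50, 7.51 and 4.01 CPM in the unbound libraries of TDP-43 WT, 6.29, 3.22 and 8.29 CPM in those of TDP-43 G298S and 8.44, 5.63 and 10.3 CPM in those of YFP. Each TDP-43 value was below its own input. The Log2FC over input was -1.30 (SE 0.33, Padj = 0.0121) in TDP-43 WT, -1.34 (SE 0.32, Padj = 0.0235) in TDP-43 G298S and 0.18 (SE 0.33) in YFP. *br*, at 1.42, 7.55 and 2.46 CPM, 4.61, 1.34 and 6.34 CPM, and 6.73, 4.23 and 7.08 CPM, had -1.43 (SE 0.50, Padj = 0.0526), -1.64 (SE 0.50, Padj = 0.0310) and 0.58 (SE 0.50).

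*toy* was at 23.1, 56.8 and 32.3 CPM, 44.5, 18.1 and 42.8 CPM, and 60.4, 57.3 and 84.7 CPM in the unbound libraries. All YFP values exceeded all TDP-43 values, the reverse of its IP. Its Log2FC over input was -0.53 (SE 0.29, Padj = 0.231) in TDP-43 WT, -0.999 (SE 0.30, Padj = 0.0294) in TDP-43 G298S and 0.73 (SE 0.30) in YFP. *ey* was at 8.26, 14.5 and 11.8 CPM, 10.5, 8.48 and 11.4 CPM, and 13.5, 14.8 and 17.0 CPM, with -0.51 (SE 0.22, Padj = 0.121), -0.62 (SE 0.22, Padj = 0.0572) and 0.07 (SE 0.22). Its within-lysate ratios lay between -0.54 and -0.47 in TDP-43 WT and between -0.70 and -0.52 in TDP-43 G298S, all below those of YFP (-0.13 to 0.39).

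A test of the difference in unbound over input between TDP-43 and YFP was added after these values had been seen. It passed for *dac* in TDP-43 WT (-1.48, SE 0.46, Padj = 0.0497; 1 of 9, with 3.09% of all genes lower and 5.06% higher) and for *toy* (-1.73, SE 0.42, Padj = 0.0318), *dac* (-1.53, SE 0.46, Padj = 0.0357) and *br* (-2.23, SE 0.71, Padj = 0.0401) in TDP-43 G298S (3 of 9, with 8.79% of all genes lower and 6.90% higher). The other genes had differences between -2.01 (*br*) and -0.58 (*ey*) in TDP-43 WT and between -1.90 (*Eip93F*) and -0.69 (*ey*) in TDP-43 G298S. Of all genes, 43.2% and 39.0% were negative. Both tests share the YFP lysates.

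With the lysate as a replicate block, 3 genes passed for unbound over input in TDP-43 WT and 6 in TDP-43 G298S (13.7% and 14.6% of all genes were lower there), and 5 and 7 in the difference from YFP (10.2% and 12.5%). Leaving out single lysates gave 0 to 2 and 0 to 5 for unbound over input, with 0 without WT-202 in TDP-43 WT and 0 without any 1 of the TDP-43 G298S lysates in that genotype. In the latter 3 fits 0 of all genes passed, and the Log2FC stayed negative for *dac* (-1.06 to -1.67) and *br* (-1.24 to -2.16). For the difference from YFP, leaving out single lysates gave 0 to 5 and 0 to 6. The TDP-43 WT call of *dac* was lost without each lysate other than G298S-506 and WT-505. Of all genes, 0 passed there without G298S-503, WT-502, WT-202, YFP-902 or YFP-201, and 0.214% and 1.16% were lower without G298S-203 and YFP-901. In TDP-43 G298S 0 genes passed without any 1 of its own lysates or YFP-201, where again 0 of all genes passed. The sum of the neuron markers moved with the 9 genes, at 433 to 1149 CPM in TDP-43 WT, 381 to 921 CPM in TDP-43 G298S and 906 to 1444 CPM in YFP unbound libraries, and its part in the result was not tested.

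**Figure D5:**
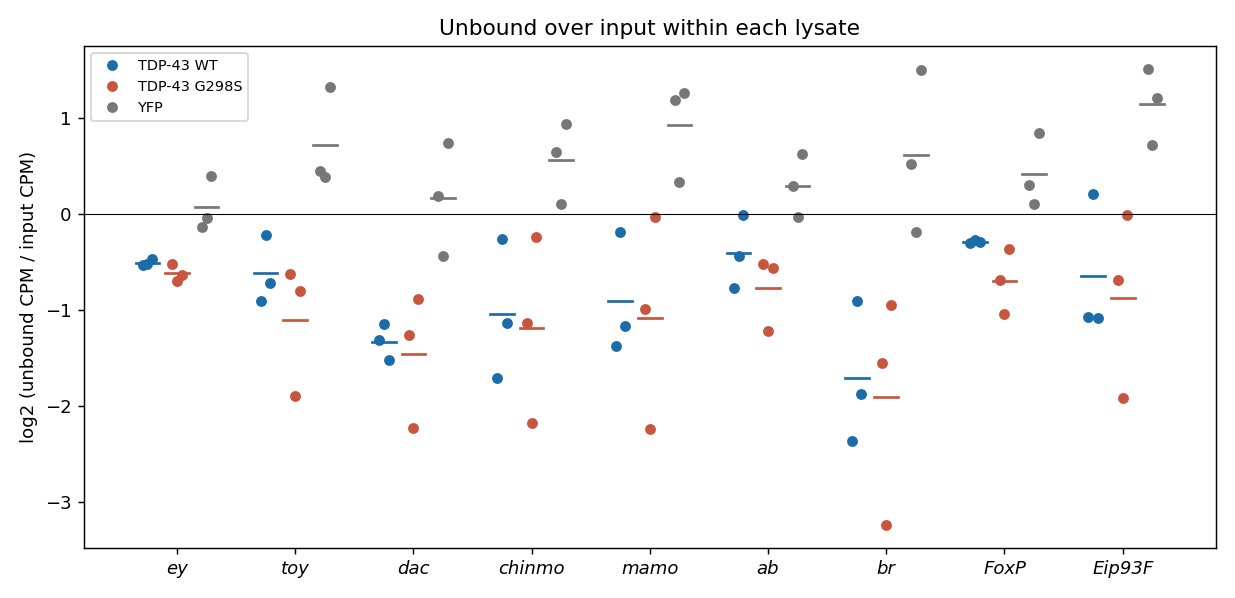
Log2 ratio of unbound to input CPM within each lysate for the 9 genes. Points are lysates (3 per genotype) and short lines are their means. For *toy*, *chinmo*, *mamo* and *FoxP* all 6 TDP-43 lysates lie below 0 and all 3 YFP lysates above it, and the lowest point is *br* in G298S-506 (-3.24).

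Across the 27 libraries the 9 genes varied together to different degrees. The Pearson correlation of their log CPM was highest for *mamo* and *Eip93F* (0.945) and for *toy* and *dac* (0.932) and lowest for *mamo* and *FoxP* (0.431). *ey* had 0.873 with *dac* and 0.811 with *toy*, and 0.453 with *mamo*. These are descriptions, since the libraries share lysates, fractions and genotypes.

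Among the other 13348 genes, those most like *ey* were *Dop1R2* (0.972), which encodes a dopamine receptor, and *dpr4* (0.970). *Snx27* (0.975) and *gzl* (0.971) were most like *toy*, and *Fs(2)Ket* (0.992) and *Nup153* (0.987) most like *dac*. For the BTB genes they were *SK* (0.958) and *Sh* (0.950), both of which encode potassium channels, for *chinmo*, *Frq1* (0.975) and *chrb* (0.966) for *mamo*, *dlg1* (0.910) and *CG4502* (0.893) for *ab*, and *chn* (0.982) and *tipE* (0.981) for *br*. *Octbeta2R* (0.919) and *CG42327* (0.918) were most like *FoxP*, and *lncRNA:CR45102* (0.961) and *Delta* (0.949) most like *Eip93F*.

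Other transcription factors and pathway genes were examined as 4 lists, and none of their genes passed the test of a difference from YFP. For comparison, 10.5%, 7.39% and 10.3% of all genes were enriched in the IPs of TDP-43 WT, TDP-43 G298S and YFP. Of 20 tested temporal identity and hormone genes, 11 were enriched in the IP of TDP-43 WT, 4 in that of TDP-43 G298S and 12 in that of YFP, and 0 differed from YFP in either variant. The median difference was -0.50 and -0.73, against -0.00 and -0.02 for all genes. The most abundant of the list were *Syp*, the RNA-binding protein opposed to Imp in MB neuroblasts (difference from YFP -1.06 and -1.72), *Smox*, the activin pathway Smad (0.41 and 0.03), *Eip75B*, an ecdysone-induced nuclear receptor (-0.90 and -1.27), and *put*, a type II receptor of activin and BMP ligands (-0.88 and -0.20).

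Of 10 retinal determination genes, 2 were enriched in TDP-43 WT, 2 in TDP-43 G298S and 5 in YFP, 1 was depleted with TDP-43 G298S, and 0 differed from YFP. The *hth* homeobox gene (-0.92 and -1.25), *eya* (-0.48 and -0.24), which encodes the partner of Dac and So, *Optix* (-0.68 and -0.54) and *so* (-0.23 and -0.31) were the most abundant. None of the 10 passed the test that *ey* passed.

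Among 11 other BTB genes, 2, 2 and 5 were enriched with TDP-43 WT, TDP-43 G298S and YFP, and 0 differed from YFP. *lola* had differences of -0.72 and -1.32, *psq* -0.24 and -0.75, *ttk* -1.20 and -1.35, and *fru*, the sex determination gene, -0.15 and -0.34. Of 9 other neuronal transcription factors tested, 3, 2 and 5 were enriched and 0 differed from YFP. The differences in this list ran from -1.61 to 2.095 in TDP-43 WT and from -1.84 to 3.08 in TDP-43 G298S. The highest of each was above that of *ey* (2.07 and 1.94) but did not pass. *pros*, which ends neuroblast proliferation, had 0.40 and -0.24, *jim* -0.79 and -1.08, *scrt* -1.61 and -1.71, and *Mef2*, expressed in all Kenyon cells, 0.72 (SE 0.29) and 0.10 (SE 0.29). At an unadjusted p below 0.05 in edgeR, 4 genes of the 4 lists were higher and 10 lower in TDP-43 WT than in YFP, and 1 was higher and 16 lower in TDP-43 G298S than in YFP. DESeq2 called 0 in TDP-43 WT and 6 lower in TDP-43 G298S, where it called 2.62% of all genes lower. In the inputs, 3 of 20 temporal identity and hormone genes were higher in TDP-43 WT than in YFP and 12 of 20 in TDP-43 G298S. Of all genes 7.58% and 15.4% were higher. In the other lists it was 0 and 2 of 10 retinal determination genes, 1 and 5 of 11 BTB genes and 2 and 6 of 9 neuronal transcription factors. Unbound was below input in each variant for 19 of 20, 10 of 10 and 11 of 11 genes of the first 3 lists. Of the 9 neuronal transcription factors 8 and 9 were below input. In YFP 17 of 20, 5 of 10, 6 of 11 and 7 of 9 genes were above input.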

How the data were processed

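The authors deposited 1 table of raw read counts per gene (whole numbers, not normalized) for 27 libraries. Per the labels, libraries were made from full-length cDNA without molecular identifiers, so reads are not independent molecules. The submitters' processing notes name bcl2fastq 2.19.1.403, cutadapt 2.7, STAR 2.6.1d and featureCounts 1.6.3. The genome release is not given in the sources used here. Gene symbols, exon lengths and overlaps came from the BDGP6.54 annotation, and neither coordinates nor sequences are given. A count of TG runs was not made because no genome was at hand.

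Counts were fitted with edgeR 4.0.16 (R 4.3.3), using TMM scaling, filterByExpr and the quasi-likelihood test. The 18 IP and input libraries were fitted in 6 groups (12921 genes tested of 16432 with at least 1 count), and unbound contrasts came from the fit of all 27 libraries (13349 genes). p values were adjusted by Benjamini and Hochberg over all genes tested. Enrichment and differences in enrichment were called at Padj below 0.05 and an absolute Log2FC above 1, and all other contrasts at Padj below 0.05. CPM values are TMM-scaled. RPKM divides them by exon length, and the log CPM behind lysate ratios and correlations has a prior count of 2. The test was checked on simulated counts.

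The 9 genes and all gene lists (temporal identity and hormone, retinal determination, other BTB genes, other neuronal transcription factors, and markers of Kenyon cells, photoreceptors, neurons, muscle, fat body and glia) were chosen with earlier results of these data known. All 9 genes are described, the 4 most abundant tested genes of each transcription factor list are named, and the 2 genes with the highest Pearson r are given for each of the 9. Lysates carry separate numbers in the labels, and p values measure the spread between them, which may be partly technical.

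Input, IP and unbound libraries of 1 lysate are paired by the labels. Their deviations from the group means correlated at 0.676 to 0.921 for input with unbound, 0.061 (WT-502) to 0.731 for input with IP and 0.043 (WT-502) to 0.740 for IP with unbound. The fits had no block, and a fit with the lysate as block was an alternative. The others were DESeq2 1.42.0, its size factors in edgeR, library sizes alone, no filter, no mitochondrial and rRNA genes, all 27 libraries in 1 fit, the unbound fraction as reference, the label number as a term, and each lysate left out. The difference in unbound change between TDP-43 and YFP was added after seeing the data.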

Additional observations from a re-analysis of the deposited data

Results flagged for a closer look

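The enrichment of *ey* over input differed between genotypes: TDP-43 WT exceeded YFP by 2.07 and TDP-43 G298S exceeded YFP by 1.94 on the log2 scale, both by the test of the difference in edgeR. All 6 TDP-43 lysates were enriched by 1.87 or more on that scale, and no YFP lysate by more than 0.28.

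The change from input to unbound also differed between genotypes. It was lower than in YFP by -1.48 for *dac* in TDP-43 WT, and by -1.73 for *toy*, -1.53 for *dac* and -2.23 for *br* in TDP-43 G298S. This test was added after the values had been seen, and the YFP lysates are shared by all 6 comparisons. The unbound calls were not firm. That of *dac* in TDP-43 WT was lost without any 1 lysate other than G298S-506 or WT-505. Those in TDP-43 G298S were all lost without any 1 of its own lysates or YFP-201, where 0 of all genes passed.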

How the results depend on the processing

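*ey* kept its enrichment and its difference from YFP under the alternatives, except for the leave-one-out losses given above for TDP-43 G298S. Counts of the 9 genes moved more. Against the unbound fraction, 7 were enriched in the TDP-43 WT IP, 6 in that of TDP-43 G298S and 2 in YFP, and 2 differed between TDP-43 WT and YFP. Of all genes 15.8%, 14.9% and 5.68% were enriched there, and 4.1% were higher in TDP-43 WT than in YFP. Library sizes alone gave 6 enriched with TDP-43 G298S (30.6% of all genes). They gave 3 input differences of TDP-43 G298S from YFP (8.54% of all genes higher and 30.4% lower). The label number as a term left 1 input difference of TDP-43 WT from YFP (2.39% of all genes higher and 3.24% lower). Leaving out single lysates gave 3 to 7 enriched with YFP, 0 to 1 higher in TDP-43 G298S than in YFP and 0 to 3 input differences of TDP-43 WT from YFP. The shares of all genes higher were 7.52% to 10.9%, 0.0229% to 0.496% and 3.02% to 15.1% in that order.

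For unbound over input, TDP-43 WT had 2 calls with DESeq2 size factors, library sizes alone or no filter, 3 with DESeq2 or the replicate block, and 0 to 2 without single lysates. Of all genes 11.1%, 12.8%, 6.86%, 15.3% and 13.7% were lower in that order, and 1.54% to 8.7% without single lysates. TDP-43 G298S had 6 with DESeq2 size factors, DESeq2 or the replicate block, 5 without the filter, and 0 to 5 without single lysates. Here 12%, 15.5%, 14.6% and 9.16% of all genes were lower in that order, and 0% to 13.4% without single lysates. The unbound difference from YFP had, for TDP-43 WT, 3 calls with DESeq2 size factors, 2 with no filter, 0 without mitochondrial and rRNA genes, 4 with DESeq2, 5 with the block and 0 to 5 without single lysates. Of all genes 8.5%, 4.73%, 0%, 13.1% and 10.2% were lower in that order, and 0% to 8.13% without single lysates. For TDP-43 G298S the unbound difference had 6, 5, 5, 9, 7 and 0 to 6 calls in the same order, and 1 with library sizes alone. There 11.8%, 8.6%, 10.1%, 14.1% and 12.5% of all genes were lower, and 0% to 12.3% without single lysates. With library sizes alone 4.02% were lower. The block, which pairs the libraries of a lysate, gave 2.06 and 1.95 for the *ey* differences from YFP and a call for *Eip93F* in TDP-43 G298S minus YFP (-1.42). It changed no other call of the IP. Causes were not tested.

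Signs turned for small values and, with the unbound reference, also for large differences from YFP. Library sizes alone shifted the median of all genes by 0.88 for TDP-43 G298S IP over input and by 0.68 for its difference from YFP. There *mamo* (0.58), *ab* (0.89) and *Eip93F* (0.66) turned for TDP-43 G298S IP, *toy* (0.24), *dac* (0.40) and *ab* (0.0024) for its difference from YFP, *ey* (-0.25), *FoxP* (-0.39) and *ab* (-0.0527) for its input, *ey* (-0.35) for WT minus G298S, *toy* (0.18) for TDP-43 WT minus YFP, and *ey* (-0.26), *dac* (-0.16) and *ab* (-0.0347) for YFP unbound. With the unbound reference, TDP-43 G298S IP turned for *mamo* (0.70), *ab* (0.82) and *Eip93F* (0.61), YFP IP for *ey* (-0.14) and *Eip93F* (-0.0058), and WT minus G298S for *ey* (-0.0262). The difference from YFP turned for *toy* (1.38), *chinmo* (0.74), *mamo* (0.89), *FoxP* (0.63), *Eip93F* (0.96) and *br* (1.05) in TDP-43 WT and for *toy* (1.46), *dac* (1.42), *chinmo* (0.70), *mamo* (0.62), *FoxP* (0.40), *ab* (0.53), *Eip93F* (0.61) and *br* (0.86) in TDP-43 G298S.

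All 27 libraries in 1 fit turned *ab* (0.0885) in TDP-43 G298S IP, *toy* (0.12) in TDP-43 WT minus YFP and *ey* (-0.0717) in YFP IP. Without mitochondrial and rRNA genes *ab* (0.10) turned in TDP-43 G298S IP, *FoxP* (-0.0159) in TDP-43 G298S input, *toy* (0.0718) in TDP-43 WT minus YFP and *ey* (-0.0354) in YFP IP, the last also without the filter (-0.0024). DESeq2 and its size factors turned *ab* (-0.0092) and the replicate block *toy* (0.0039) in TDP-43 WT minus YFP. Without single lysates *ab* ranged from -0.18 to 0.22 in TDP-43 G298S IP and from -0.0327 to 0.44 in TDP-43 WT input, *FoxP* from -0.0900 to 0.0885 in TDP-43 G298S input, and *ey* from -0.20 to 0.25 in YFP IP. In TDP-43 WT minus YFP, *toy* ranged from -0.23 to 0.12, *chinmo* from -1.39 to 0.0137, *FoxP* from -0.65 to 0.10 and *ab* from -0.22 to 0.32, and in YFP unbound *ey* from -0.0841 to 0.17 and *dac* from -0.11 to 0.47. Depth was lowest for *br*, with 15 counts in the unbound library of G298S-506 and 45 in the IP of G298S-503.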
